A study of Homo sapiens with 6 samples.

Results

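The NF-kB system of SKOV3, a long-established line of human ovarian cancer cells, was read through 10 genes: the subunit genes NFKB1, NFKB2 and RELB, the inhibitor genes NFKBIA, NFKBIE and TNFAIP3, the ligand genes TNF and LTB, and the target genes TNFAIP2 and ICAM1. They were chosen by name, as every probe set whose only annotated gene symbol is on this list. That gave 18 of the 54675 probe sets on the array. The 10 genes were picked with earlier results of these data known, so their shared direction is a description and no independent evidence. The study examined how miR-21, which its title ties to stromal exosomes and to resistance against taxol, changes ovarian cancer cells. The control group is SKOV3 given a negative control precursor miRNA (3 arrays), and the other group is SKOV3 given miR21 precursor at 5 nM (3 arrays), each for 24 h. Both groups share the culture, in serum-containing medium, and the transfection, and no untransfected cells were analysed here. The label calls the line high grade serous ovarian cancer cells.

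NF-kB is a family of dimeric transcription factors built from RELA, RELB, REL and the processed products of NFKB1 and NFKB2. In resting cells, IkB proteins hold the dimers in the cytoplasm until IKK kinases mark the IkB for destruction, a step set off by receptors such as those for TNF and lymphotoxin. The freed dimers induce inflammatory genes together with their own inhibitors, among them NFKBIA and TNFAIP3, which shut the response off again. In ovarian cancer cells the pathway is known for driving inflammatory cytokine output.

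The agent of the study is shown by its mature form, with the seed (bases 2 to 8) in capitals. It comes from RefSeq (GRCh38.p14, chr17:59841273-59841294, plus strand), since the labels do not spell out the transfected precursor.
hsa-miR-21-5p: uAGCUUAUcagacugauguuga

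RefSeq promoter windows, each with 250 bases before and 50 bases after an annotated start, were found for 8 of the 10 genes. None was found for RELB and NFKBIE, whose promoters were thus not searched. The kB consensus, the DNA motif that NF-kB dimers are known to bind, was searched on both strands. It occurred in at least 1 window of 5 of these 8 genes (62.5%), against 13.3% of the 27305 genes in the table and 23 of 65 other genes of the pathway (35.4%). NFKB1 held GGGAATTTCC on the strand of the gene, 49 bases before the start. By their brightest probe sets, NFKBIA and LTB were lower with miR21 in every replicate number and TNFAIP3 was not. These genes carry the motif, so windows of 4 genes that hold it are shown, with the motif in capitals. They are NFKBIA (chr14:35404700-35404999, minus strand), TNFAIP3 (chr6:137867009-137867308, plus strand), LTB (chr6:31582376-31582675, minus strand) and NFKB2 (chr10:102395455-102395754, plus strand), all of GRCh38.p14.
NFKBIA: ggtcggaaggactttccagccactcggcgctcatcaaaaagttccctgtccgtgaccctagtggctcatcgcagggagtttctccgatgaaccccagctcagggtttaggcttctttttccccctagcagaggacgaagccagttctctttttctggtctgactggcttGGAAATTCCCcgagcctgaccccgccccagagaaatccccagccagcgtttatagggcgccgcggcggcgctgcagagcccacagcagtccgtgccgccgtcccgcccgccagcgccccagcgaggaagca
TNFAIP3: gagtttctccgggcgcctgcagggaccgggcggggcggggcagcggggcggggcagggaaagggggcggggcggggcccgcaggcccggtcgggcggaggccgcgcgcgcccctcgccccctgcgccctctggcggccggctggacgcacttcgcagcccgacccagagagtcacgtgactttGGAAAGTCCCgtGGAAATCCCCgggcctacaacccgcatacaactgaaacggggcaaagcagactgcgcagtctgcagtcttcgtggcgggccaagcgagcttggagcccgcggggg
LTB: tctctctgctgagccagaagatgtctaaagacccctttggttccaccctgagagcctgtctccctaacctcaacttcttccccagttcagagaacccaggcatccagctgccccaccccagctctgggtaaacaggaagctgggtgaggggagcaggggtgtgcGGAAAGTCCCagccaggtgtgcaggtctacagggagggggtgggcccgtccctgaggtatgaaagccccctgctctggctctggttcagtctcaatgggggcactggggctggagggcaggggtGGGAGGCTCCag
NFKB2: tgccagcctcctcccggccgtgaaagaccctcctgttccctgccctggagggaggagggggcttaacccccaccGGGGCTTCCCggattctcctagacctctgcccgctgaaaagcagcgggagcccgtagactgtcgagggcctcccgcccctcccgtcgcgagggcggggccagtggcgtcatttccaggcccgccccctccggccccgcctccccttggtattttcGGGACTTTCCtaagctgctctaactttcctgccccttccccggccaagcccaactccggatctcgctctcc
The NFKBIA motif lies 81 bases before the start, and TNFAIP3 has a pair at 67 and 55 bases before it. LTB has 1 before and 1 after its start. In NFKB2, of which the last of 3 windows is shown, the more distant capitals match the motif on both strands. The windows of TNF, TNFAIP2 and ICAM1 held no match, which says only that these letters are not in this stretch. A match is a run of letters and was not tested as a site.

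The arrays stood apart by replicate number before any gene was compared. The deposited values are MAS5 signals, linear intensities scaled so that the trimmed mean of every array is 500. The median signal was 125 and 117 on the number 1 arrays (control, then miR21) and between 55.2 and 61.9 on the other 4. Arrays of the same number shared their levels, so each difference is also given within numbers, and nothing in the labels says that the numbers are separate cultures. The p-values thus speak for the spread of these arrays alone, which could be technical. Of 8 epithelial markers 7 lay above the signal filter (a signal of 65.5, the median of all probe sets). CLDN4 did not. Of the 10 leukocyte markers read by a probe set of their own 0 lay above it, with summed signals of 206 to 995 on the control arrays and 164 to 853 on the miR21 arrays, and none at 0. Of the 5 endothelial markers 1 (PECAM1) and of the 6 fibroblast markers 2 (COL1A1 and COL1A2) lay above it. The endothelial sums ran from 100.3 to 740 and from 79.3 to 581, and the fibroblast sums from 394 to 1068 and from 329 to 1237.

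All 10 genes had a lower mean log2 signal with miR21 than with the control precursor, and 0 of them passed the test. Their median log2 difference, miR21 minus control, was -1.01, beside -0.01 over the 12204 genes tested. It rested on single arrays: it was -1.94 without control replicate 3, -0.59 without control replicate 2 and -0.67 without miR21 replicate 3. With each gene read by the mean of all its probe sets it was -0.47 over 9 genes. TNF was lowest relative to its controls at 3.89-fold, followed by NFKBIA, ICAM1, TNFAIP2 and LTB at 2.91-fold to 2.64-fold. The subunit genes and NFKBIE differed by 1.51-fold or less. In numbers 1 and 2 every gene was lower, 10 of 10, where 38.4% of all genes were lower in both. In number 3 the genes parted: ICAM1 and LTB were lower there too, while TNFAIP3 was 3.53-fold higher on the miR21 array by its brighter probe set. The dimmer TNFAIP3 probe set was lower there, by -0.40 on the log2 scale. In bulk RNA, fewer cells with a transcript and less of it per cell cannot be told apart.

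Values were compared by limma across all 12204 genes above the filter, each read by its probe set of highest mean signal, with Benjamini-Hochberg adjustment. It called 0 genes anywhere (0% of those tested) and held 1 of the 10 at an unadjusted p under 0.05, NFKBIA, which was lower, where 1.26% of all genes were so on the lower side. With the replicate number as a block it called 4 genes (0.0328%), none of them among the 10. Of the 10, 6 had an unadjusted p under 0.05 in that fit, all lower, where 10.3% of all genes did so on the lower side. The smallest adjusted p of the 10 was 0.115, for LTB in the block fit of limma. Over all 54613 non-control probe sets with no filter, limma called 0% without the block and 0.00916% with it, and 0 of the 18 probe sets in either fit.

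**Figure D1:**
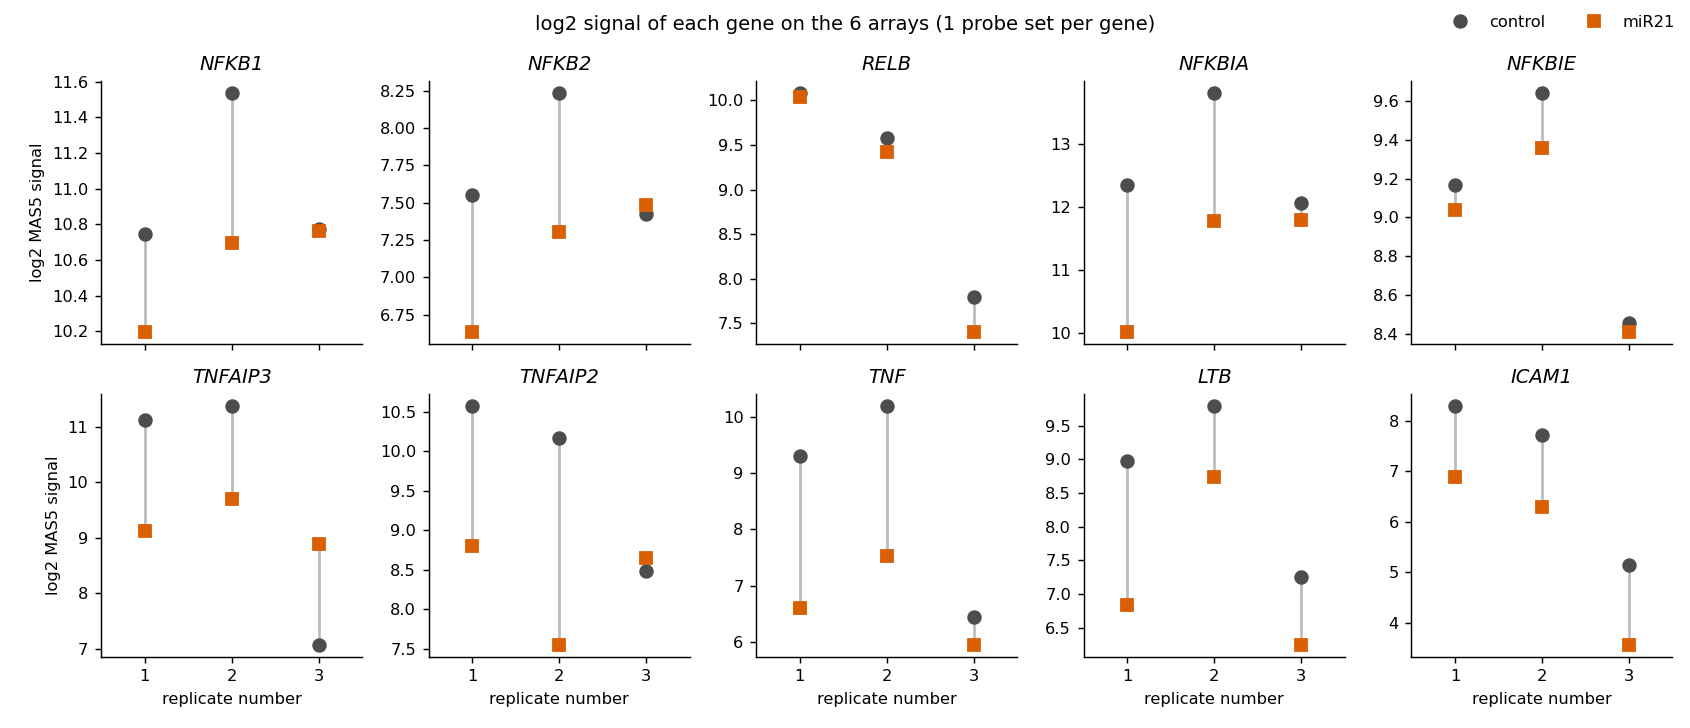
log2 MAS5 signal (vertical axis) of each of the 10 genes by replicate number (horizontal axis), with control arrays as dark circles and miR21 arrays as orange squares, joined within a number and with a separate axis range for each gene. In numbers 1 and 2 each square lies below its circle, and in number 3 the control circle of TNFAIP3 lies below the miR21 square.

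Among the subunit genes, NFKB1 and NFKB2 were lower with miR21 in numbers 1 and 2 and close to their controls in number 3, while RELB differed little in any number. NFKB1 encodes the p105 precursor of p50 (chr4:102501359-102617302, GRCh38.p14), and its signals for numbers 1, 2 and 3 were 1717, 2971 and 1753 with the control precursor and 1173, 1656 and 1736 with miR21. The miR21 array of number 3 lay at the level of control arrays 1 and 3, so the groups overlapped. Its log2 difference was -0.47 (SE 0.34 in limma, 0.18 with the block; adjusted p = 0.9999 and 0.222). Within numbers 1, 2 and 3 it was -0.55, -0.84 and -0.01, and without control replicate 2 the mean was -0.21.

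NFKB2 encodes the p100 precursor of p52, the partner of RELB in the non-canonical branch (chr10:102394110-102402529). The probe set that represents it gave 188, 301 and 172 with the control precursor and 99.4, 158 and 179 with miR21, so that only number 3 was not lower. Within numbers 1 and 2 that was 1.89-fold and 1.91-fold lower. The log2 difference was -0.60 (SE 0.44, and 0.31 with the block), and -0.34 without miR21 replicate 1 or -0.35 without control replicate 2. A second NFKB2 probe set above the filter gave a like mean of -0.62 with another order of numbers, at -0.85, -0.01 and -0.98. The last lay near the floor of the array, with signals of 8.86, 9.71 and 13.9 with the control precursor and 61.1, 21.1 and 0.85 with miR21, and its mean difference of -0.04 averages 2.79, 1.12 and -4.02 within numbers.

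RELB, the subunit that pairs with p52 (chr19:45001464-45038192), varied far more between replicate numbers than between the groups. It read 1085, 764 and 222 with the control precursor and 1055, 684 and 170 with miR21. Both number 3 arrays were low, and within each number the miR21 array was slightly lower, by -0.04, -0.16 and -0.39 on the log2 scale. The mean difference was -0.20 (SE 0.81 without the block, 0.19 with it). Its sign was not stable where 1 array of a pair was left out. Without miR21 replicate 3 the difference was 0.58, without control replicate 1 it was 0.27 and without control replicate 2 it was 0.02. With both arrays of number 1, 2 or 3 left out the difference stayed below 0, at -0.27, -0.22 and -0.10.

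Among the inhibitors, NFKBIA stood out as the gene whose groups did not overlap. It encodes IkB-alpha, the classic feedback inhibitor that NF-kB itself induces (chr14:35401513-35404749, minus strand). Its signals were 5197, 14333 and 4293 with the control precursor and 1037, 3524 and 3559 with miR21. The lowest control array still lay above the highest miR21 array, but both were of number 3 and close. Of all genes 3.27% were lower without overlap, and 1 of the 10 was. The log2 difference was -1.54 (SE 0.63, adjusted p = 0.9999 in limma; SE 0.36, adjusted p = 0.124 with the block). Within numbers it was -2.32, -2.02 and -0.27. An exact permutation test (two-sided), which ignored the replicate numbers, gave p = 0.1, the smallest that 3 arrays against 3 allow. Groups without overlap always give that p, so it adds nothing to the lack of overlap. The mean log2 difference was -0.95 without miR21 replicate 1, -1.01 without control replicate 2 and -0.65 when both NFKBIA probe sets were averaged. A dim NFKBIA probe set, below the filter, differed by 0.24 and followed none of this (56.2, 55.5 and 32.1 against 61.5, 48.5 and 55.4).

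NFKBIE, which encodes IkB-epsilon (chr6:44258166-44265551), differed by 1.11-fold. The control arrays read 575, 799 and 351 and the miR21 arrays 526, 655 and 340, again with both number 3 arrays lowest. The log2 difference was -0.15 (SE 0.42, and 0.18 with the block), at -0.13, -0.29 and -0.04 within numbers. Without control replicate 2 it was 0.12, and without miR21 replicate 3 it was 0.11. With both arrays of number 1, 2 or 3 left out it stayed below 0, at -0.16, -0.09 and -0.21.

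TNFAIP3 encodes A20, a ubiquitin-editing enzyme that ends TNF receptor signalling (chr6:137866349-137883312), and it was the gene whose numbers disagreed most. Control arrays gave 2232, 2652 and 134 and miR21 arrays 558, 833 and 475. The lowest of all 6 was the control array of number 3, so the groups overlapped fully. The differences within numbers were -2.00, -1.67 and 1.82, with a mean of -0.62 (SE 1.06, and 0.66 with the block). Without control replicate 3 the mean was -2.01, and without control replicate 2 it was 0.14. The other TNFAIP3 probe set did not share the turn in number 3. It read 715, 497 and 50.5 with the control precursor and 275, 58.9 and 38.2 with miR21, lower in each number (-1.38, -3.08 and -0.40).

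**Figure D2:**
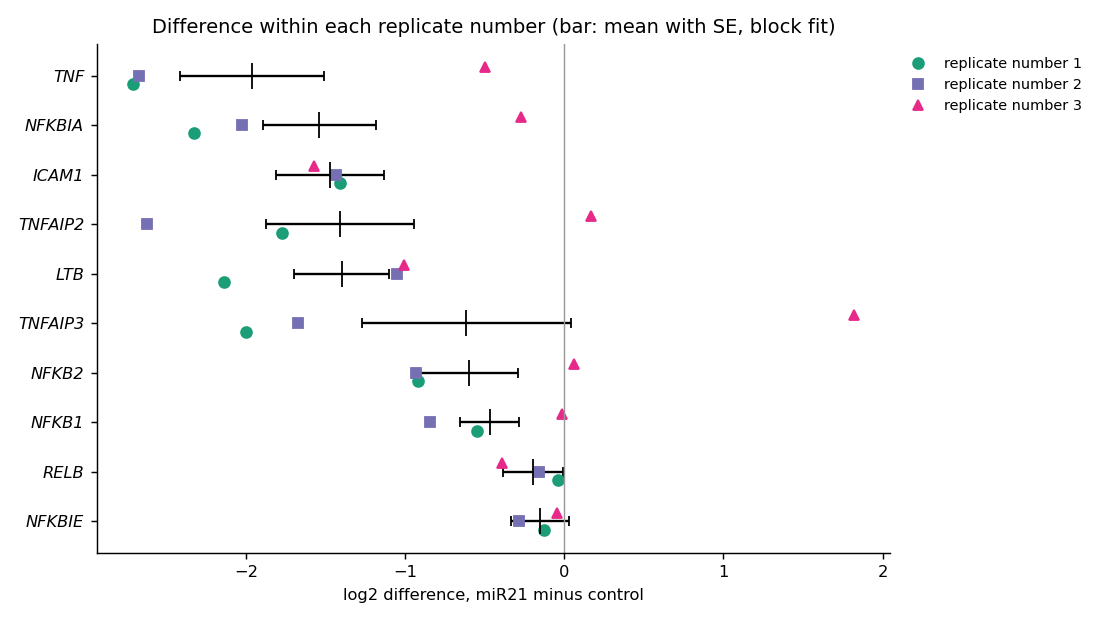
log2 difference of signal, miR21 minus control (horizontal axis), for each gene within replicate number 1 (circles), 2 (squares) and 3 (triangles). Each gene is read by its brightest probe set. Black bars give the mean difference with its SE in the block fit. The triangles of TNFAIP3 (1.82), TNFAIP2 (0.17) and NFKB2 (0.06) lie to the right of 0, and those of ICAM1 and LTB lie past -1.

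The ligand genes lie side by side in the major histocompatibility region of chromosome 6. TNF (chr6:31575565-31578336), the cytokine that gives the pathway its best known trigger, read 633, 1172 and 87.4 with the control precursor and 96.7, 184 and 61.8 with miR21. Controls 1 and 2 were high, and all other arrays, the control of number 3 among them, were low. The control array of number 3 lay below the miR21 arrays of numbers 1 and 2, so the groups overlapped. The log2 difference was -1.96 (SE 0.95, adjusted p = 0.9999 in limma; SE 0.45, adjusted p = 0.124 with the block), and -2.71, -2.67 and -0.50 within numbers. It ran from -3.06 without control replicate 3 to -1.19 without control replicate 2.

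LTB encodes lymphotoxin beta, the membrane anchor of the ligand of the non-canonical receptor LTBR (chr6:31580558-31582425). Its signals were 502, 886 and 152 with the control precursor and 114, 427 and 75.7 with miR21. The miR21 array was lower within each number, by 4.41-fold, 2.07-fold and 2.01-fold, but the groups overlapped, since the control array of number 3 lay below the miR21 array of number 2. The log2 difference was -1.40 (SE 0.83 without the block and 0.30 with it). It ran from -2.13 without miR21 replicate 2 and -2.11 without control replicate 3 to -0.89 without miR21 replicate 3 and -0.84 without control replicate 2. The second LTB probe set, also above the filter, was lower in each number by far less, -0.18, -0.40 and -0.33, so the size of the LTB difference depends on the probe set.

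ICAM1, the adhesion molecule that leukocytes bind and a textbook NF-kB target (chr19:10271120-10286615), differed by a like amount within each number on the probe set that represents it, though not on its others. It read 314, 212 and 35.1 with the control precursor and 118, 78.7 and 11.8 with miR21. The fold differences were 2.66, 2.70 and 2.98, although the level itself was several-fold lower in number 3 in both groups. Both number 3 signals lay below the filter value of 65.5. With 16 added to each signal the differences were -1.30, -1.27 and -0.88, that of number 3 having been -1.58. The mean log2 difference was -1.47 (SE 1.13 without the block, 0.34 with it; adjusted p = 0.124 with the block in limma). It ran from -2.43 without control replicate 3 to -0.85 without control replicate 1 and -0.46 without miR21 replicate 3. Both other ICAM1 probe sets were lower in each number as well, at -0.80, -0.82 and -2.81 for the brighter and -1.01, -0.81 and -2.83 for the dimmer, which lay below the filter.

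TNFAIP2, a gene induced by TNF whose product takes part in membrane protrusions (chr14:103121469-103137439), was lower in numbers 1 and 2 only. Control arrays gave 1522, 1154 and 357, and miR21 arrays gave 445, 187 and 402. In number 3 the miR21 array was thus 1.12-fold higher, from a control level already below the miR21 array of number 1. The log2 difference was -1.41 (SE 0.61, and 0.47 with the block). A dim probe set of the gene, with signals between 3.24 and 45.9, differed by 1.14, with 3.82 in number 3, and with the mean of both probe sets the gene differed by -0.13.

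**Figure D3:**
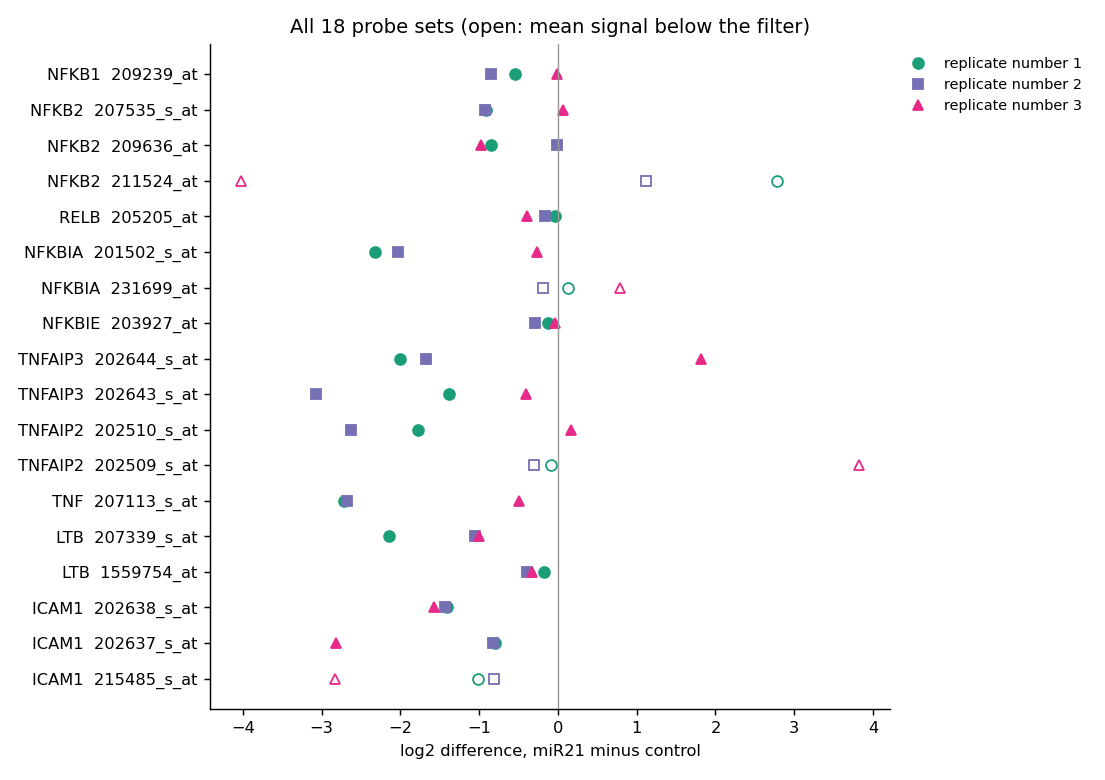
log2 difference, miR21 minus control (horizontal axis), of all 18 probe sets within replicate numbers 1 (circles), 2 (squares) and 3 (triangles), with open symbols where the mean signal was below the filter. The widest scatter, from -4.02 to 2.79, is that of a dim NFKB2 probe set, and the ICAM1 probe sets all lie below 0.

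Of the 18 probe sets 14 lay above the filter, and the 4 below it belonged to NFKB2, NFKBIA, TNFAIP2 and ICAM1. All 10 genes were represented by a probe set above the filter. ICAM1 passed it through the control group, since its miR21 mean lay below the filter.

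Control replicate 3 lay further from the other controls than the groups lay from each other, with a median log2 distance of -1.96 over the 10 genes beside -1.01. Control replicate 3 lay below both other control arrays for 9 of the 10 genes, against 39.1% of all genes, with NFKB1 as the exception. Relative to the mean of controls 1 and 2 it was 18.1-fold lower for TNFAIP3, 9.86-fold for TNF, 7.36-fold for ICAM1, 4.38-fold for LTB and 4.10-fold for RELB. It was 1.39-fold lower for NFKB2 and 1.29-fold for NFKB1. The miR21 array of number 3 was low as well for some genes. Its log2 distance from the mean of the other miR21 arrays was -3.03 for ICAM1, -2.32 for RELB, -1.54 for LTB and -1.11 for TNF. That distance was also below 0 for NFKBIE and TNFAIP3, and above 0 for NFKB1, NFKB2, NFKBIA and TNFAIP2. For 5 of the 10 genes control replicate 3 was below the miR21 arrays of numbers 1 and 2, a count whose share over all genes was not taken. For 7 of the 10 its distance from the other controls exceeded the distance between the groups, a share close to that of all genes (69.9%). On the same array KRT19, an epithelial keratin gene, read 16291, against 3732 and 5572 on the control arrays of numbers 1 and 2. The miR21 arrays ran alike (2805, 4921 and 12175). The epithelial markers did not share this direction. On control replicate 3 KRT8, KRT18 and ERBB2 were also highest of the controls, while EPCAM, MUC1, CLDN3 and CLDN4 were lowest. The part of such level differences between numbers in the results was not tested.

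**Figure D4:**
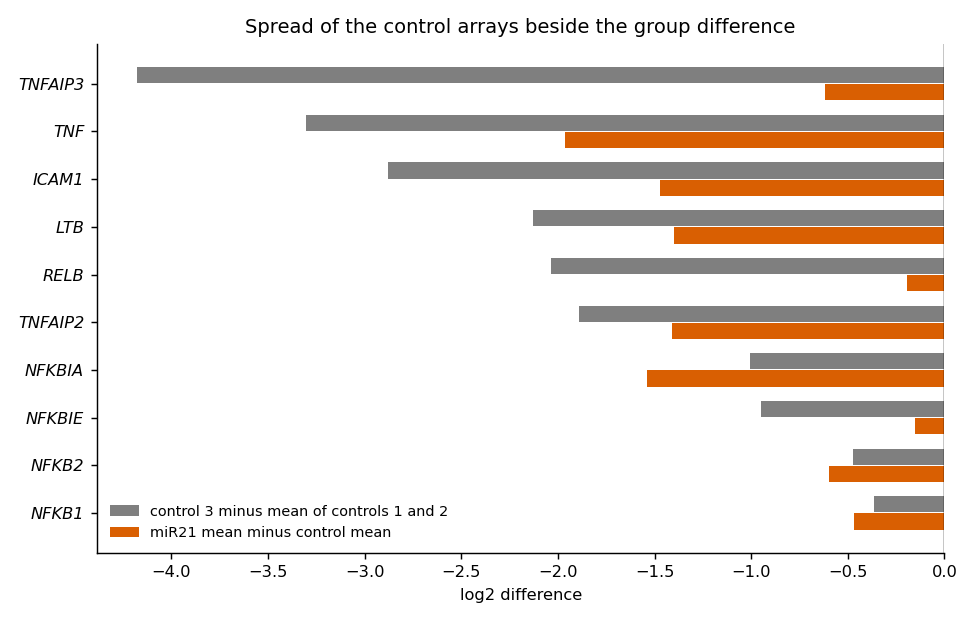
log2 difference (horizontal axis) of control replicate 3 from the mean of control replicates 1 and 2 (grey bars) beside the difference of the miR21 mean from the control mean (orange bars), for each gene. The grey bar is the longer for 7 of the 10 genes, where the same held for 69.9% of all genes, and reaches -4.18 for TNFAIP3.

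In all 3 replicate numbers 7 of the 10 genes were lower with miR21 and 0 were higher, against 20.9% of all genes on the lower side. The exceptions were NFKB2, TNFAIP3 and TNFAIP2. ICAM1 is among the 7, though it passed the filter through the control group and both its number 3 signals lay below the filter value. Several of the differences counted were close to 0, and the count depends on the scaling. It stayed at 7 with quantile normalization and with 16 added to the signal. With each array centred on its median signal, which moved the median difference of all genes within number 3 to 0.13, 4 of the 10 were lower in all 3 numbers (NFKBIA, TNF, LTB and ICAM1), against 12.0% of all genes. NFKB1 and NFKBIE then turned in number 3 and RELB in number 1. The same centring left control replicate 3 lowest of the controls for 6 of the 10, against 19.1%. Without the number 1 arrays, which stood apart, 7 of the 10 were lower in both remaining numbers, against 25.4%.

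The calls depended on number 3. The median difference of the 10 genes was -1.59, -1.24 and -0.16 within numbers 1, 2 and 3. Without both arrays of number 3 and with the block, 8 of the 10 genes passed limma at an adjusted p under 0.05, all lower, where 16.9% of all genes passed on that side and 32.8% on either side. They were all but RELB and NFKBIE. In that fit TNF differed by -2.69 (SE 0.26), TNFAIP2 by -2.20 (SE 0.21), NFKBIA by -2.17 (SE 0.13) and TNFAIP3 by -1.84 (SE 0.16). It rests on 2 pairs, and most of its 50.4 degrees of freedom are borrowed from other genes. Without number 1, 0 of the 10 passed, where 0.483% of all genes did. Without number 2, 0 of the 10 and 0 of all 12204 genes passed. Whether number 3 differs from the others was not tested, since it holds 1 array per group.

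The other genes of the pathway were taken by role, from 72 listed genes of which 66 had a probe set of their own and 55 lay above the filter. Limma called 0 of the 55 with or without the block, and their median log2 difference was -0.05. An unadjusted p under 0.05 without the block was found for 2 of them (CD83 lower, RBCK1 higher), against 2.44% of all genes. Without number 3, 22 of the 55 were called lower and 8 higher, where 16.9% and 15.9% of all genes were. Without number 1, 1 was called, against 0.483% of all genes. It was IL6, which was chosen here after its value was seen.

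The remaining subunits and nuclear IkB proteins had a median of -0.73 over 4 genes, 3 of them lower. The subunit genes REL and RELA, given to complete the list, differed by -0.37 and 0.13, so this median is not that of the subunits. NFKBIZ, a nuclear IkB protein that steers secondary response genes, read 2671, 1486 and 302 with the control precursor and 953, 408 and 321 with miR21. NFKBID, another nuclear IkB gene, differed by -1.13. All 4 were lowest among the controls in number 3, against 39.1% of all genes.

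The other IkB and IKK genes had a median of 0.01 over 10 genes, 4 lower and 6 higher. NFKBIB, which encodes IkB-beta, was higher with miR21 without overlap of the groups, at 302, 394 and 404 against 660, 961 and 406. Its log2 difference was 0.81 (SE 0.39), but near 0 in number 3. Of the 55 pathway genes 2 were higher without overlap, where 413 of the 12204 genes tested were. MAP3K14, the NIK kinase that starts the non-canonical branch, differed by -0.86, with -1.38, -0.99 and -0.22 within numbers. So the inhibitor genes of the IkB family did not share a direction by mean: NFKBIA and NFKBIE were lower and NFKBIB higher, and 0 of the 3 passed the test.

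Receptors, adaptors and ligands had a median of 0.00 over 13 genes, 6 lower and 7 higher. TRADD, the adaptor of the TNF receptor, differed by 0.64 and was higher in each number, and the RNA sensor gene TLR3 differed by -0.82. Ubiquitin editors and other feedback regulators had a median of 0.04 over 14 genes, 6 lower and 8 higher. RBCK1, the HOIL-1 subunit of the linear ubiquitin ligase, read 4251, 7195 and 5696 with the control precursor and 15971, 21201 and 5896 with miR21. USP18, a protease that removes the interferon-induced modifier ISG15, differed by -1.54. Both genes differed by only 0.05 and 0.06 in number 3.

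Known NF-kB target genes had a median of -0.65 over 14 genes, 11 lower and 3 higher. Of these, 7 were lower in all 3 numbers, against 20.9% of all genes. Of the 55 pathway genes only CD83, a surface protein of activated immune cells, was lower without overlap, where 3.27% of all genes were. It read 503, 651 and 337 with the control precursor and 150, 114 and 232 with miR21. Its log2 difference was -1.60 (SE 0.43, adjusted p = 0.9999 in limma; adjusted p = 0.124 with the block). IRF1, a transcription factor of interferon responses, differed by -0.81. As for most of the 10 genes, 12 of these 14 were lowest among the control arrays in number 3, against 39.1% of all genes.

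**Figure D5:**
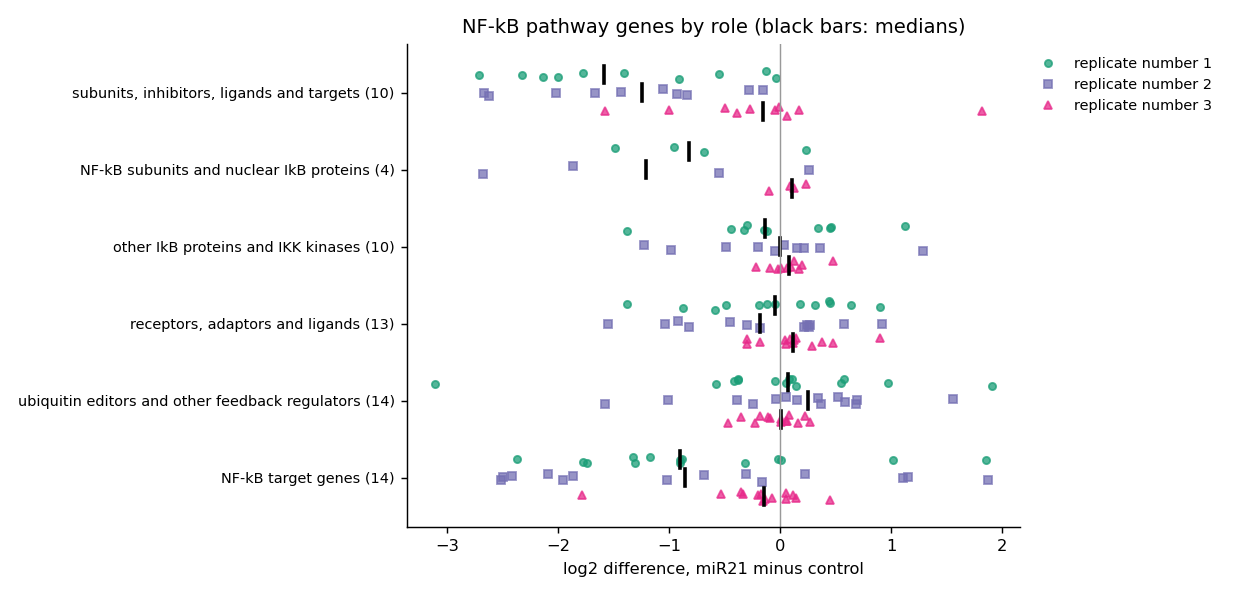
log2 difference, miR21 minus control (horizontal axis), of single genes within replicate numbers 1 (circles), 2 (squares) and 3 (triangles), for the 10 genes and 5 role lists of the pathway, with the number of genes in brackets and medians as black bars. The medians of the 10 genes are -1.59, -1.24 and -0.16, and those of the targets -0.90, -0.85 and -0.14. Those of receptors are -0.04, -0.18 and 0.11, and those of ubiquitin editors 0.07, 0.25 and 0.01.

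The median profile of the 10 genes over the 6 arrays, each gene centred on its own mean, was 1.01, 1.27 and -0.64 on control arrays 1, 2 and 3 and -0.51, -0.06 and -0.63 on miR21 arrays 1, 2 and 3. Only controls 1 and 2 were high. The genes outside the list that ran closest to it, by root mean square distance over the 6 arrays, were CALML4 (0.23), CTSS (0.26), IRF9 (0.26), BEAN1 (0.26) and TNFSF10 (0.28). CTSS encodes a lysosomal protease, IRF9 an interferon signalling factor and TNFSF10 the death ligand TRAIL. The 10 genes themselves lay between 0.52 (NFKBIE) and 1.08 (ICAM1) from their own median profile.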

How the data were processed

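Total RNA of 6 SKOV3 samples was amplified, labelled with biotin and read on U133 Plus 2.0 arrays, per the labels' protocols. The deposited table holds linear intensity signals, made by the authors with MAS5 per the submitters' processing notes. The sources used here give neither its version nor its settings. Scaling to a common trimmed mean hides a shift shared by most genes, and dim MAS5 signals are noisy on the log2 scale. Precision is limited by how few arrays there are.

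Of 54613 non-control probe sets, 41091 name 1 gene, 1801 several and 11721 none used here. Entrez identifiers of 41037 were found in RefSeq (GRCh38.p14). Log2 signals, with no pseudocount, were compared across all genes in R 4.3.3 using limma 3.58.1, with the variance trend turned on in eBayes. A gene was read by the probe set whose mean log2 signal was highest, if above the median of all probe sets (log2 6.03). The call rule was an adjusted p under 0.05. The steps were tested on simulated data. The genes, the 5 role lists, the marker lists and the rule for named genes (all 10 genes, the 2 of smallest p in each role list where none passed, and the 5 nearest profiles) were chosen with earlier results of these data known.

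The replicate numbers come from the titles. Deviations from the group means correlated at 0.899, 0.639 and 0.636 within numbers 1, 2 and 3, so the numbers were taken to pair the arrays. Crossing numbers 2 and 3 (0.281 and 0.411) would pass the same rule, and only the titles settle the pairing. As planned, the main comparison used no block. Alternatives tried were median centring, quantile normalization, 16 added to the signal, other filters, no trend, the mean of probe sets, the replicate block, and arrays or numbers left out.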

Additional observations from a re-analysis of the deposited data

How the results depend on the processing

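With 3 arrays per group and shared levels within numbers, absence of a call says little about these genes. The replicate block changed no call: 0 of the 10 genes, 0 of the 55 pathway genes and 0 of the 18 probe sets passed limma, with or without it. Without both arrays of number 3, with the block, 8 of the 10 genes and 30 of the 55 pathway genes passed, where 32.8% of all genes did, and without number 1, 1 pathway gene did, where 0.483% of all genes did; the cause was not tested. Leaving out 1 array at a time gave 0 calls among the 10 and among the pathway genes throughout, and moved the median difference of the 10 from -1.01 to as far as -1.94 (without control replicate 3) or -0.59 (without control replicate 2), with -0.67 without miR21 replicate 3. The mean of all probe sets gave -0.47 over 9 genes and the upper quartile filter -0.54 over 6. The count lower in all 3 numbers stayed at 7 with quantile normalization and with 16 added to the signal. It was 4 with median centring, 4 of the 6 genes left by the upper quartile filter and 5 of the 9 read by the mean of all probe sets. Counting only 2 numbers, an alternative chosen after seeing the data, gave 7 without number 1 and 10 without number 3. In the alternatives that gave them a value (13 to 15), NFKB1, NFKB2, NFKBIA, TNFAIP2, TNF, LTB and ICAM1 had a mean below 0, TNFAIP2 at only -0.13 with the mean of all probe sets, and RELB, NFKBIE and TNFAIP3 changed sign in some. RELB and NFKBIE did so only where 1 array of a pair was left out, not where both arrays of a number were. The upper quartile filter left out NFKB2, TNF, LTB and ICAM1, and the mean of all probe sets left out ICAM1.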
